A study of Caenorhabditis elegans with 4 samples.

Results

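The spe genes are a family of Caenorhabditis elegans genes named for defective spermatogenesis, and fer-1 is an older name for a gene of the same kind. The members were chosen by symbol, as every gene whose WormBase symbol is spe- followed by a number, together with fer-1. This gave 30 of the 46934 genes counted. No measured value enters that rule, but the family was proposed with fold changes of this same comparison known, so its counts and medians describe the family and no test of the family as a group is given. The libraries came from whole adult animals. Their titles read smRNA sequencing, but the protocol enriched long RNA and the tables hold gene counts. ATTF-6 depletion animals carried GFP::tev::aid::attf-6 on chromosome I and the TIR1 transgene wrdSi51 on chromosome II, in 2 libraries. Control animals carried wrdSi51 alone, also in 2 libraries. Both groups were grown at 20 °C and moved to 4 mM auxin at the L4 larval stage. TIR1 is the plant receptor that directs auxin-dependent degradation of degron-tagged proteins, and here the mex-5 promoter limits it to the germ line. The tagged allele is present only in the depletion strain, so the tag and the loss of the protein cannot be told apart.

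A hermaphrodite makes its sperm in late larval life and then switches to oocytes. Spermatocytes first pack the major sperm protein into fibrous bodies attached to membranous organelles. Spermatids are later activated into crawling sperm, partly through the SPE-8 signalling pathway, and a further set of sperm proteins acts when sperm meets egg. Members were therefore ordered by the step at which they are known to act, with 10 in spermatocytes, 9 in spermatid activation and 9 at fertilization. The step of spe-48 and spe-54 was not assigned.

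With TMM scaling, most of these genes were higher upon ATTF-6 depletion, by a little more than a doubling at the median. The rise was smaller with the libraries scaled to somatic genes. There the median log2 fold change was 0.54, and 13 members were higher, against 8.51% of all genes tested. Of the 29 members that passed the expression filter, 22 were higher and 3 were lower at an adjusted p under 0.05, while 4 did not pass the test. Among all 16591 genes tested, 30.9% were higher and 32.1% were lower. The median log2 fold change of the 29 members was 1.24, with quartiles of 0.75 and 1.44, against a median of 0.16 over all genes tested. The 3 that fell were spe-39, spe-44 and spe-48, and without control replicate 1 or without control replicate 2 only 1 of them, spe-39, was called. Every log2 fold change is ATTF-6 depletion over control with its standard error (SE) after a ± sign. Unless another tool is named, adjusted p-values come from the quasi-likelihood test of edgeR and were corrected by the Benjamini-Hochberg method across all genes tested. The values of a library are normalised read counts in CPM, which express each gene as a share of the library after TMM scaling.

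The expression filter asked for about 0.351 CPM in 2 libraries. Of the members, 27 reached this level in both control libraries. The fertilization genes spe-38 and spe-36 reached it in both depletion libraries but not in both controls. They could therefore enter the test only through the group in which they were higher. Over the 27 members that reached it in both controls, 21 were higher, 3 were lower and 3 did not pass the test. Their median log2 fold change was 1.24, and both depletion libraries were above both controls for 24. Among all genes tested, without that condition on the controls, 30.9% were higher and 32.1% were lower. Both depletion libraries were above both controls for 44.1% of them. The shares among all genes that met the condition were not computed. The activation gene spe-29 reached the level of the filter in neither group and was not tested.

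**Figure D1:**
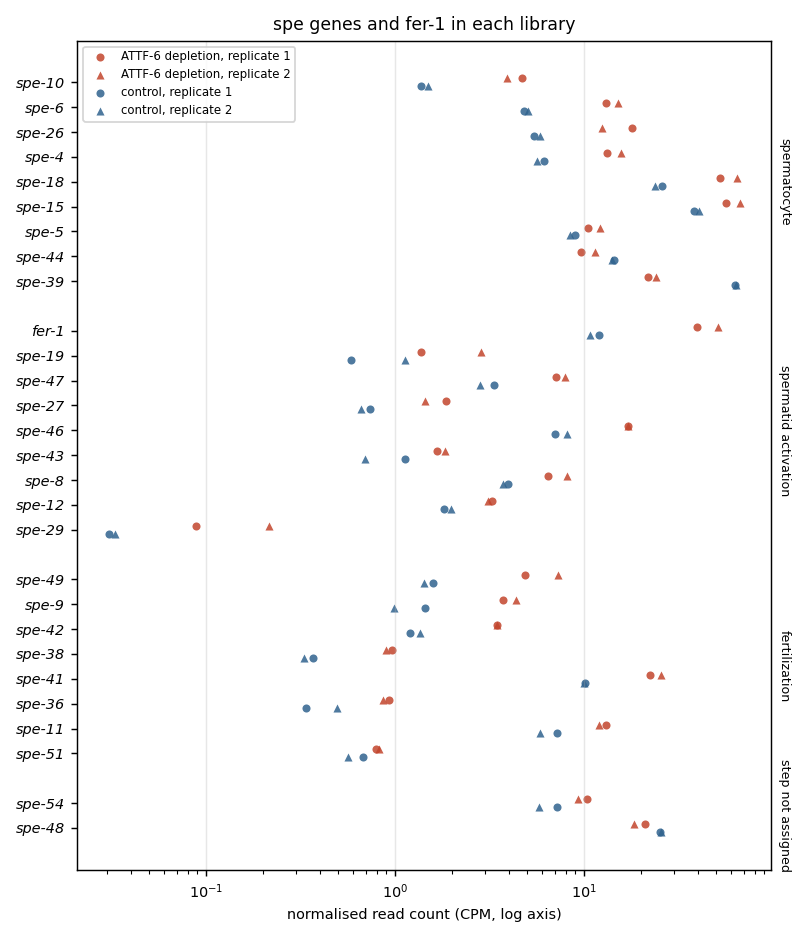
Normalised read counts (CPM, log axis) of 28 members in each library, with ATTF-6 depletion in red and control in blue, circles for replicate 1 and triangles for replicate 2, grouped by step. Red points lie to the right of blue points for every member shown except spe-44, spe-39 and spe-48.

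The groups did not overlap for any member. Both depletion libraries were above both controls for 26 of the 29 tested members, against 44.1% of all genes tested, and below both controls for the other 3, against 38.2% of all genes tested. Summed over all 30 members, the normalised count was 366.5 and 409.2 CPM in the depletion libraries and 255.7 and 252.8 CPM in the control libraries. The sum also holds the fall of spe-39, the member with the highest control level per kilobase. Within the depletion group, replicate 2 was above replicate 1 for 17 of the 29 tested members, and the ratio of replicate 2 to replicate 1 lay between 0.698 for spe-26 and 2.08 for spe-19. Between the control libraries the same ratio lay between 0.618 and 1.93.

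The spermatocyte step held genes that rose and genes that fell. Of its 10 genes, 7 were higher, 2 were lower and 1 did not pass the test, and the median log2 fold change was 1.26. Beside this and the later steps stand the shares over all genes tested, 30.9% higher and 32.1% lower. The DHHC palmitoyltransferase spe-10 (WBGene00004964, chromosome V, 10384250 to 10385740 on the plus strand of WBcel235) acts in the fibrous body-membranous organelle. It had 4.72 and 3.92 CPM upon depletion and 1.38 and 1.49 CPM in the controls, a 3.00-fold difference (adjusted p = 0.00077). The casein kinase-like gene spe-6 (WBGene00004960, chromosome III, 11505488 to 11508930, plus strand), which is needed to assemble fibrous bodies and also restrains early activation, had 13.1 and 15.2 CPM upon depletion and 4.82 and 5.06 CPM in the controls. Its log2 fold change was 1.52 ± 0.18 (SE, adjusted p = 9.8e-05).

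The kelch-repeat gene spe-26 had 17.9 and 12.5 CPM upon depletion and 5.46 and 5.83 CPM in the controls. The presenilin-family gene spe-4, whose product sits in the fibrous body-membranous organelle, had 13.2 and 15.7 CPM upon depletion and 6.17 and 5.66 CPM in the controls. For spe-18, which encodes a disordered protein of fibrous body assembly, the values were 52.4 and 64.6 CPM upon depletion and 25.8 and 23.9 CPM in the controls. These 3 genes moved by similar amounts, with log2 fold changes of 1.43, 1.29 and 1.24, although spe-18 had the highest control level of the 3 per kilobase, 20.2 CPM against 3.18 for spe-26 and 3.72 for spe-4. The class VI myosin spe-15, which partitions material between spermatid and residual body, rose less, with 56.2 and 66.7 CPM upon depletion and 38.4 and 40.4 CPM in the controls (log2 fold change 0.64, adjusted p = 0.0012). The vacuolar proton pump subunit spe-5 had 10.5 and 12.1 CPM upon depletion and 8.93 and 8.47 CPM in the controls, which did not pass the test (log2 fold change 0.38, adjusted p = 0.080). Without depletion replicate 1 it did, with a log2 fold change of 0.47 (adjusted p = 0.0114).

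The spermatocyte genes that fell were spe-39 and spe-44. The gene spe-39 (WBGene00004975, chromosome V, 6785451 to 6787864, plus strand) encodes a partner of a Vps33 protein and works in lysosomal traffic in many tissues as well as in the membranous organelles of sperm. It had 21.8 and 24.0 CPM in the depletion libraries and 63.1 and 64.2 CPM in the controls. The log2 fold change was -1.47 ± 0.11 (SE, adjusted p = 8.4e-06), and this was the only member whose fall passed the test under every alternative tried. The transcription factor spe-44, which switches on sperm genes in spermatocytes, had 9.66 and 11.4 CPM upon depletion and 14.4 and 14.0025 CPM in the controls. Its log2 fold change was -0.43 ± 0.16 (SE, adjusted p = 0.044), and the adjusted p was 0.056 without depletion replicate 1, 0.22 without control replicate 1 and 0.17 without control replicate 2.

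**Figure D2:**
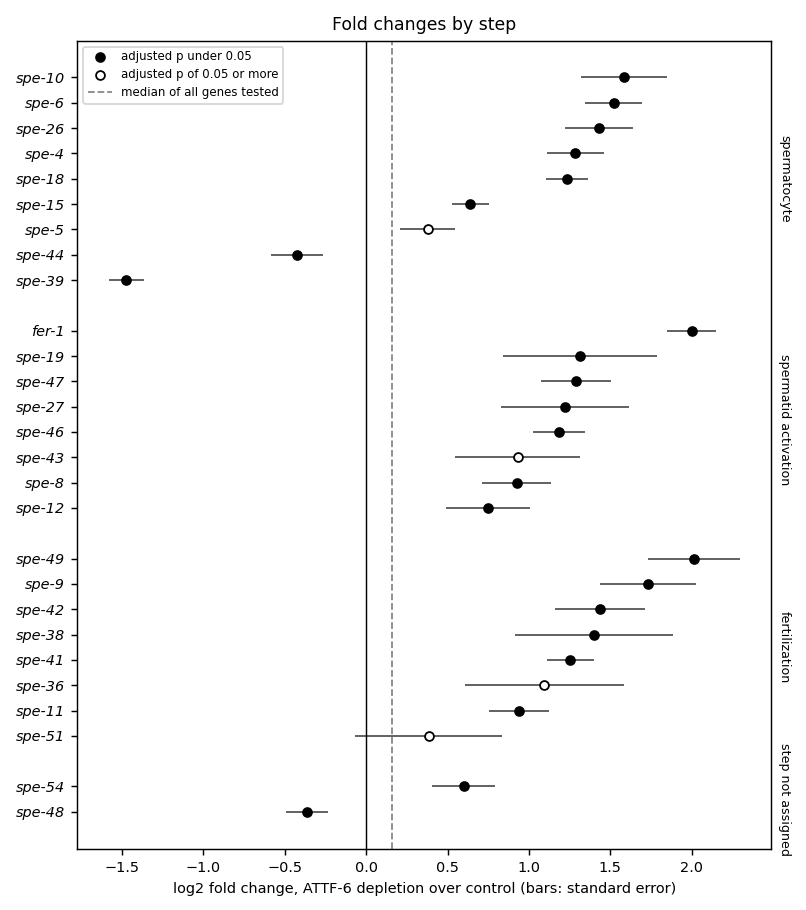
Log2 fold changes (ATTF-6 depletion over control) of 27 tested members with their standard errors, grouped by step. Filled points have an adjusted p under 0.05, open points do not, and the dashed line marks the median of all genes tested, 0.16. Of the spermatocyte genes shown, spe-10 stands at 1.58 and spe-39 at -1.47, while every activation and fertilization gene shown lies to the right of the dashed line.

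No gene of spermatid activation was lower. Of the 8 tested genes of this step, 7 were higher and 1 did not pass the test, with a median log2 fold change of 1.20. The ferlin fer-1 (WBGene00001414, chromosome I, 8623012 to 8631202, minus strand), which fuses the membranous organelles with the plasma membrane, had 39.8 and 51.1 CPM upon depletion and 12.02 and 10.7 CPM in the controls. Its log2 fold change was 2.00 ± 0.15 (SE, adjusted p = 1.0e-05), the largest of the step. Some of its counts were fractional, so some of its reads are shared with other places in the genome, and how many was not measured.

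Mutations in spe-46 and spe-47 are known as suppressors of spe-27, a gene of the activation pathway. The multi-pass membrane gene spe-46 (WBGene00012296, chromosome I, 9056293 to 9057824, plus strand) had 17.2 and 17.1 CPM upon depletion and 6.999 and 8.11 CPM in the controls, a 2.27-fold difference (adjusted p = 0.00023). The gene spe-47 (WBGene00021271, chromosome I, 2617529 to 2620430, plus strand), which encodes a protein with a major sperm protein domain, had 7.14 and 7.94 CPM upon depletion and 3.35 and 2.81 CPM in the controls, a 2.45-fold difference (adjusted p = 0.00073).

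The SPE-8 pathway passes the activation signal in hermaphrodite spermatids. Its tyrosine kinase spe-8 (WBGene00004962, chromosome I, 118093 to 120901, plus strand) had 6.48 and 8.12 CPM upon depletion and 3.96 and 3.74 CPM in the controls (log2 fold change 0.92, adjusted p = 0.0045). The membrane protein gene spe-12 had 3.26 and 3.13 CPM upon depletion and 1.81 and 1.99 CPM in the controls. Its log2 fold change was 0.75 (adjusted p = 0.032), and the call was lost when any of the 4 libraries was left out. DESeq2 (adjusted p = 0.25), its size factors in edgeR (0.061) and the somatic scaling (0.89) lost the call as well. The membrane protein gene spe-19 had 1.37 and 2.84 CPM upon depletion and 0.583 and 1.13 CPM in the controls. Replicate 2 was about double replicate 1 in both groups. The log2 fold change was 1.32 (adjusted p = 0.036). It was 0.63 without depletion replicate 2 and 0.89 without control replicate 1, and the call was lost in both. DESeq2 (adjusted p = 0.11) and the somatic scaling (0.29) lost the call as well.

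The remaining genes of the pathway had few reads. The soluble protein gene spe-27 had 42 and 40 counts upon depletion and 24 and 20 counts in the controls (adjusted p = 0.023). That call was lost without depletion replicate 1, control replicate 1 or control replicate 2. It was also lost with DESeq2 (adjusted p = 0.15) and with the somatic scaling (0.30). The membrane protein gene spe-43 had 38 and 51 counts upon depletion and 36.67 and 21 counts in the controls, which did not pass the test (log2 fold change 0.93, adjusted p = 0.060). The small membrane protein gene spe-29 had 2 and 6 counts upon depletion and 1 count in each control. The ratio of its summed normalised counts, 4.97, had an exact 95% interval of 0.992 to 48.1 that covers counting error only, so a difference was not detectable at this depth.

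Of the 9 fertilization genes, 7 were higher, 0 were lower and 2 did not pass the test, with a median log2 fold change of 1.40. Without spe-38 and spe-36, which did not reach the level of the expression filter in both controls, 6 of 7 were higher and the median was 1.44. The DC-STAMP domain genes spe-49 and spe-42 are paralogs. The gene spe-49 (WBGene00019667, chromosome V, 6281359 to 6284895, plus strand) had 4.85 and 7.33 CPM upon depletion and 1.596 and 1.42 CPM in the controls, and its log2 fold change was 2.01 ± 0.28 (SE, adjusted p = 0.00028). The gene spe-42 (WBGene00007117, chromosome V, 11733540 to 11736996, minus strand) had 3.48 and 3.45 CPM upon depletion and 1.20 and 1.36 CPM in the controls, and its log2 fold change was 1.44 ± 0.28 (SE, adjusted p = 0.0017). Whether the fold changes of these 2 genes differ was not tested.

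The sperm surface protein spe-9 (WBGene00004963, chromosome I, 11582743 to 11586069, minus strand) carries EGF repeats and is needed for sperm and egg to fuse. It had 3.75 and 4.38 CPM upon depletion and 1.44 and 0.993 CPM in the controls, a 3.33-fold difference (adjusted p = 0.00086). The calcium channel spe-41 (WBGene00004976, chromosome III, 3439011 to 3444210, minus strand), also called trp-3, had 22.4 and 25.6 CPM upon depletion and 10.1 and 10.03 CPM in the controls. Its log2 fold change was 1.25 ± 0.14 (SE, adjusted p = 9.0e-05). The paternal-effect gene spe-11 (WBGene00004965, chromosome I, 5330578 to 5332169, minus strand), which acts in the egg after sperm entry, had 13.1 and 11.998 CPM upon depletion and 7.24 and 5.86 CPM in the controls (log2 fold change 0.94, adjusted p = 0.0019).

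The fertilization genes spe-38, spe-36 and spe-51 were near the limit of detection. The multi-pass membrane gene spe-38 had 22 and 25 counts upon depletion and 12 and 10 counts in the controls. Its adjusted p was 0.031, and the call was lost when any of the 4 libraries was left out. DESeq2 (adjusted p = 0.22) and the somatic scaling (0.27) lost the call as well. The secreted proteins spe-36 and spe-51 did not pass the test. The gene spe-36, with EGF-like motifs, had 21 and 24 counts upon depletion and 11 and 15 counts in the controls (log2 fold change 1.09, adjusted p = 0.078). The gene spe-51, with an immunoglobulin-like domain, had 18 and 23 counts upon depletion and 22 and 17 counts in the controls (log2 fold change 0.38, adjusted p = 0.48).

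With TMM scaling, the members with no assigned step moved in opposite directions and by small amounts. Both log2 fold changes were negative under the somatic scaling, -1.06 for spe-48 (adjusted p = 3.3e-05) and -0.10 for spe-54. The gene spe-48 (WBGene00021771, chromosome I, 1950594 to 1958527, minus strand) had 21.1 and 18.4 CPM upon depletion and 25.1 and 25.6 CPM in the controls. Its log2 fold change was -0.36 ± 0.13 (SE, adjusted p = 0.036), and the adjusted p was 0.17 without control replicate 1 and 0.21 without control replicate 2. The gene spe-54 (WBGene00010136, chromosome I, 8869715 to 8871531, plus strand) had 10.4 and 9.34 CPM upon depletion and 7.24 and 5.76 CPM in the controls, with a log2 fold change of 0.60 (adjusted p = 0.023). The call was lost without control replicate 2 (adjusted p = 0.26), with DESeq2 (0.15), with DESeq2's size factors in edgeR (0.0516) and with the somatic scaling.

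Levels of different genes were compared per kilobase of annotated exon. In the controls the members with the highest levels were spe-39 with 32.7 CPM per kilobase, spe-18 with 20.2 and spe-48 with 20.0, followed by spe-15 with 10.1 and spe-44 with 8.70. The members that fell, spe-39, spe-48 and spe-44, are all among these 5 genes. The control level is also the denominator of the fold change, so this rank and a fall are not independent. Upon depletion the first places were held by spe-18 with 47.5, spe-46 with 16.3, spe-15 with 15.8, spe-48 with 15.6 and spe-11 with 12.9 CPM per kilobase. The fertilization genes other than spe-11 and spe-41 were among the lowest, between 0.512 and 2.45 CPM per kilobase upon depletion and between 0.367 and 0.607 in the controls. The median level of the 30 members was 6.24 CPM per kilobase upon depletion and 2.30 in the controls. Over the protein-coding genes tested it was 7.71 upon depletion and 7.19 in the controls.

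The members are unevenly placed in the genome, a feature that the rule did not use. Of the 30 genes, 13 lie on chromosome I, 9 on IV, 5 on V, 2 on III, 1 on II and 0 on X. Chromosome I holds 16.2% of the protein-coding genes tested and X holds 13.9%. Exon length did not set the family apart, with a median of 1268 bases against 1334 over the protein-coding genes tested. The shortest was spe-29 with 343 bases and the longest fer-1 with 6267. Reads were counted by strand, and 7 members overlap a coding gene on the other strand. On the same strand spe-27, spe-36 and spe-38 each overlap another coding gene, so their counts are uncertain. Counts were fractional for 2 members, fer-1 and spe-43.

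Genes of 4 further lists, 1 of them of somatic tissues, were measured beside the spe genes. Over all genes tested, 30.9% were higher and 32.1% lower. With the libraries scaled to the somatic genes these shares were 8.51% and 47.4%. Of 24 further genes linked to sperm or its activation, 18 were higher and 4 lower, with a median log2 fold change of 0.96. With the libraries scaled to the somatic genes, 8 of these were higher and 4 lower, with a median of 0.26. Of 18 germ cell genes from proliferation, meiosis and P granules, 0 were higher and 18 were lower, with a median of -1.30. Of 13 genes that act in the oocyte, at fertilization or in the eggshell, among them the oocyte surface genes egg-1 and egg-2 that sperm entry needs, 0 were higher and 13 were lower, with a median of -2.29. Of the 22 somatic genes of muscle, intestine, cuticle and neurons, 16 were higher and 0 were lower, and the median was 0.56. The log2 fold change of egg-1 was -2.56 (adjusted p = 2.1e-06). All genes of the 4 lists were detected in every library, the lowest with 18 counts. The study reported an atrophied germ line when ATTF-6 was depleted from L4 on. It also reported a modest fall in the median of germline transcripts defined by earlier work. The 18 germ cell genes listed here do not stand for that set. In libraries of whole animals, a different number of sperm-forming cells and a different amount of RNA in each cell cannot be told apart. The part of the atrophy and of these list changes in the values of the spe genes was not tested.

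**Figure D3:**
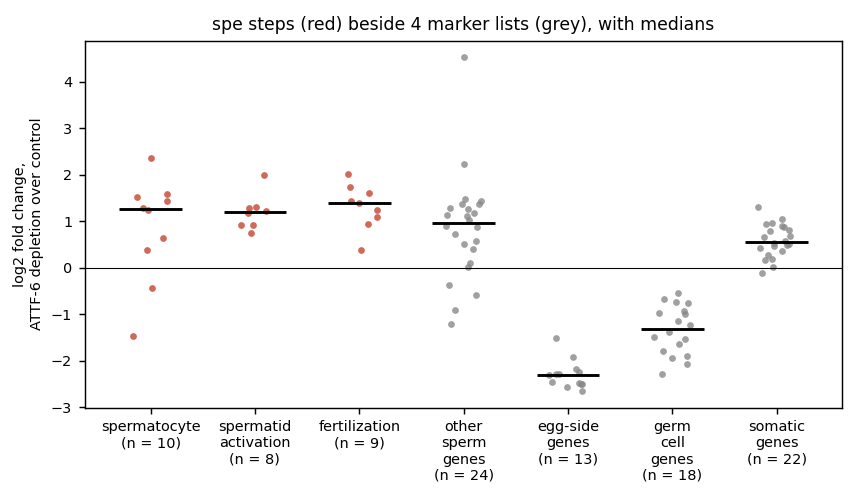
Log2 fold changes (ATTF-6 depletion over control) of single genes for the 3 steps of the spe family, in red, and for the 4 marker lists, in grey, with the median of each as a bar. The medians of the steps are 1.26, 1.20 and 1.40, against 0.96 for other sperm genes, -2.29 for egg-side genes, -1.30 for germ cell genes and 0.56 for somatic genes.

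Counts are shares of a library, so the size of the rise depended on what the libraries were scaled to. With the libraries scaled to the summed counts of the 22 somatic genes, the log2 fold changes of all genes moved by a median of -0.70. Such a sum follows its most abundant genes. The muscle gene unc-54 had 8135 and 9351 CPM upon depletion and 5466 and 5430 CPM in the controls. For the neuronal gene rab-3 the values were 7.1 and 9.66 CPM and 6.6 and 7.32 CPM. Under the somatic scaling the median of the spe genes was 0.54, with 13 members higher and 3 lower. Over all genes tested, 8.51% were higher and 47.4% lower. Among the 13 were spe-10, spe-6, spe-26, spe-4, spe-18, fer-1, spe-47, spe-46, spe-49, spe-9, spe-42 and spe-41. The log2 fold changes of spe-15, spe-5, spe-51 and spe-54 turned negative under this scaling, to -0.058, -0.32, -0.31 and -0.10, and none of the 4 passed the test. The calls of spe-8 (log2 fold change 0.23, adjusted p = 0.41), spe-11 (0.24, adjusted p = 0.31), spe-12, spe-19, spe-27 and spe-38 were also lost under it. The log2 fold changes of spe-44 and spe-48 moved to -1.12 and -1.06. With DESeq2 in place of edgeR, 17 members were higher and 3 lower, against 17.8% and 28.3% of all genes that it tested.

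**Figure D4:**
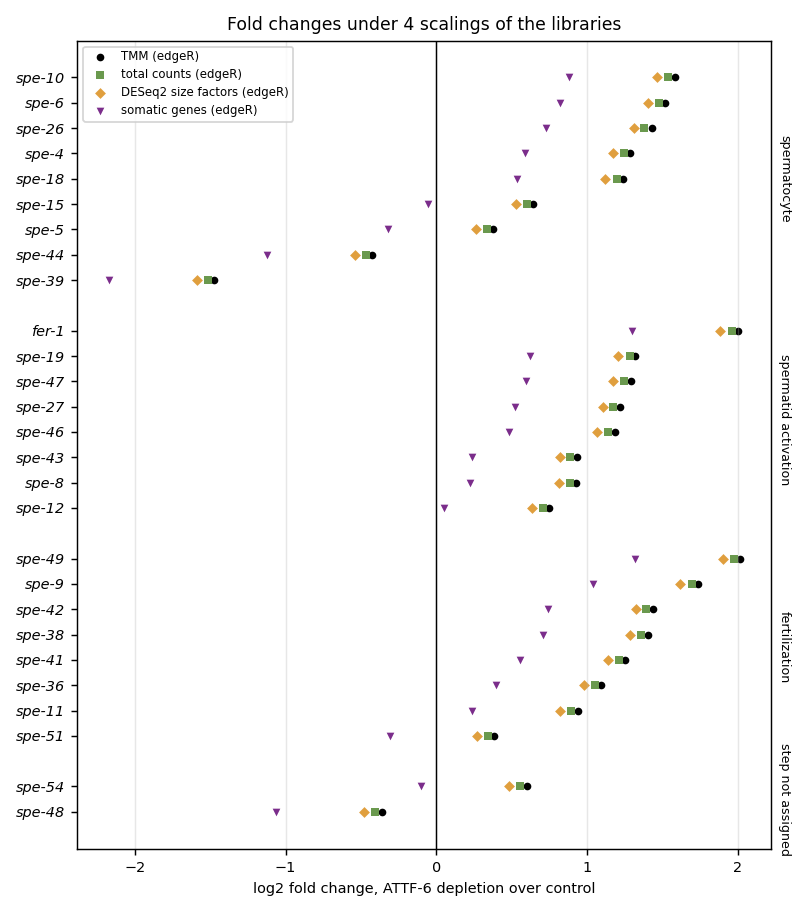
Log2 fold changes (ATTF-6 depletion over control) of 27 tested members in edgeR under 4 scalings of the libraries, by TMM, total counts, DESeq2's size factors and the somatic genes. The somatic scaling lies farthest to the left for every member shown, and the median over all 29 tested members was 0.54, against 1.24 with TMM.

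The libraries held 23923423 and 27269737 counts on genes upon depletion and 32096525 and 29753993 in the controls. Genes with fractional counts, which share multi-mapped reads, held 39.2% and 37.5% of these upon depletion and 28.5% and 28.3% in the controls, and the part of this difference in the values of the spe genes was not tested. The attf-6 mRNA had 101.0 and 125.9 CPM upon depletion and 163.0 and 173.2 CPM in the controls (log2 fold change -0.57, adjusted p = 0.0042). Auxin acts on the tagged protein, so this count does not measure the depletion. The study's methods call the replicates biological, but no label says that they came from separate cultures, and the p-values measure the spread between these libraries.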

How the data were processed

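The members, gene lists and alternatives were chosen with earlier results of these data known. RNA was depleted of ribosomal RNA before sequencing. The authors trimmed reads with TrimGalore, aligned them to WormBase WS279 with STAR, dropped orphan reads and counted pairs by strand with featureCounts, dividing multi-mapped reads between their alignments. The deposited values are expected counts for each gene, without normalization. Tool versions are not given in the sources used here. The 181 transposon rows of each table were not used. Symbols and coordinates were taken from the Ensembl annotation of WBcel235, which held 46924 of 46934 gene identifiers.

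Counts were rounded and analysed with edgeR 4.0.16 in R 4.3.3. Genes were filtered by filterByExpr (minimum count 10, minimum total 15), and TMM gave the scaling. The two-sided quasi-likelihood F-test used a prior count of 0.125, and calls were made at a Benjamini-Hochberg adjusted p under 0.05. The standard error is the log2 fold change over the square root of F. The fits were also run on simulated data with few genes changed, as many raised as lowered, which cannot test the choice of scaling. Members given with coordinates were, in each step, the 4 largest changes among called members whose groups did not overlap and whose higher group had 50 or more counts per library, and the member with the highest control level per kilobase. Values of the other members are printed too, except that 2 members are not reported here singly and enter only the counts, sums and medians. Alternatives were DESeq2 1.42.0, other scalings, no filter, a replicate block and leaving out each library. Of the list symbols, 1 (trp-3) matched no gene because the annotation calls it spe-41.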

Additional observations from a re-analysis of the deposited data

How the results depend on the processing

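Over the 10 alternatives, 13 members were higher and 1, spe-39, was lower in each. The share of all genes that kept a call in each alternative was not computed, so these counts have no background beside them. Total counts without TMM and no filter on low counts changed no call of a member. Scaling to the somatic genes moved most: 1412 genes were higher in place of 5120 and 13 spe genes in place of 22, the median of the spe genes was 0.54 in place of 1.24, spe-15, spe-5, spe-51 and spe-54 turned to -0.058, -0.32, -0.31 and -0.10, and the somatic genes' own median turned to -0.14. The median of the spe genes was 1.10 with DESeq2 and 1.12 with its size factors in edgeR. DESeq2 lost the calls of 5 members, spe-12, spe-19, spe-27, spe-38 and spe-54. Its size factors in edgeR lost those of 2, spe-12 and spe-54. Over all genes, DESeq2 shifted log2 fold changes by a median of -0.13.

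Leaving out single libraries lost the calls of 4 to 6 members, and the median of the spe genes then lay between 1.10 and 1.27, the lowest without depletion replicate 2, and the number of spe genes lower lay between 1 and 3. It was 1 without control replicate 1 and 1 without control replicate 2. The lone library of a group is then assumed to vary like the others. The fit with the replicate block called 23 spe genes higher and 3 lower, and added spe-43. Over all genes tested it called 5317 higher and 5432 lower. Same-numbered libraries did not deviate together, with a correlation of -0.022 over 16591 genes, so the numbers were not taken as pairs. Members under about 50 counts a library are limited by depth.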

Other observations

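Outside the spe family, genes linked to sperm or its activation also moved in both directions upon ATTF-6 depletion. The sperm fate regulator fog-3 had 574 and 854 counts in the depletion libraries and 38 and 38 counts in the controls, with a log2 fold change of 4.53, and its partner fog-1 had a log2 fold change of 1.43. With the libraries scaled to the somatic genes, the values were 3.83 for fog-3 and 0.73 for fog-1. The Argonautes alg-3 and alg-4, which act in spermatogenesis, rose by 1.13 and 1.17 on the log2 scale. The sperm chromatin genes spch-1, spch-2 and spch-3 had log2 fold changes of 1.37, 0.87 and 0.52. The histone H2A variant gene htas-1 had 1.03. Under the somatic scaling the values were 0.43 for alg-3, 0.47 for alg-4 and 0.33 for htas-1. For spch-1, spch-2 and spch-3 they were 0.67, 0.17 and -0.18. In the activation pathway that responds to male signals, the transporter gene snf-10 had a log2 fold change of 1.26, and 0.56 under the somatic scaling, whereas the protease gene try-5 had 28 and 18 counts upon depletion and 20 and 37 counts in the controls and did not pass the test. The 4 that fell were cpb-1, elt-1, zipt-7.1 and ife-1, with log2 fold changes of -0.90, -1.21, -0.59 and -0.38. Of these, cpb-1 and ife-1 encode translation regulators, elt-1 encodes a GATA transcription factor that also specifies epidermis, and zipt-7.1 encodes a zinc transporter of sperm activation.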
